A study of Mus musculus with 4 samples.

Results

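The genes described here copy DNA in S phase of the cell cycle or prepare the cell for it, 41 genes in all. They were found by symbol in a deposited table that compares molar with incisor pulp, and each of the 41 has a row of its own among the table's 24216 rows. RNA was sequenced from pulp cells of XLacZ4 mice, a reporter line in which beta-galactosidase marks mural cells, the pericytes and smooth muscle cells around small vessels. Dissociated teeth were stained with FDG, which fluoresces once beta-galactosidase cleaves it, and the positive cells were sorted. There were 4 libraries, 2 of molar pulp and 2 of incisor pulp, all of the XLacZ4 strain. The tissue was the only difference between the groups that the labels gave, and the age and number of the animals and any pooling are not stated in the labels. For the incisor libraries the dissociation protocol mentions molars, while title, source and tissue labels name the incisor. Whether libraries of the same tissue derive from different mice is not stated, and the authors' q values may then measure technical spread only.

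The authors' deposited table gives 1 combined FPKM value per tissue (fragments per kilobase of transcript, scaled to sequencing depth) and a q-value, and all FPKM, q and fold values below come from it. No value per library, SD or read depth could be used. A gene is termed called where the authors tested it and its q was under 0.05. Medians and differences on a log2 scale are log2((molar FPKM + 1) / (incisor FPKM + 1)), which understates the difference of low genes, and a negative value means lower in molar. The samples are bulk, so a smaller share of cycling cells and less RNA per cycling cell cannot be told apart.

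Before S phase, the origin recognition complex, Cdc6 and Cdt1 load the ring of Mcm2 to Mcm7 onto DNA. This step, licensing, leaves an inactive helicase at each origin. In S phase Cdc45 and the GINS complex join the ring and turn it into a moving helicase, polymerase alpha with primase starts each strand, and the loader RFC places the sliding clamp PCNA for polymerases delta and epsilon. Many of these genes are transcribed under E2F factors as cells leave G1. The mouse incisor grows throughout life from a pool of progenitor cells at its base, while the molar stops growing after its roots form.

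The authors' deposited table held calls in both directions, with 9 members higher in incisor and 3 higher in molar. The 9 were Cdc6, Rrm1, Mcm5, Mcm3, Mcm7, Fen1, Uhrf1, Mcm4 and Tk1, which were 2.98-fold to 6.86-fold higher in incisor. The 3 were Gins4, Pola2 and Rfc5, which were 3.81-fold to 11.2-fold higher in molar. The 9 were 22.0% of the members, where 4.28% of all 18770 tested genes were called higher in incisor. The 3 were 7.32% of the members, where 11.9% of all tested genes were called higher in molar. By sign alone 31 members were lower in molar and 10 higher. That is 75.6% lower in molar, against 45.5% of the 13198 tested genes that reached 1 FPKM in a tissue, and all 41 members reached it. The members' median log2 difference was -0.55, and that of the 13198 genes was 0.14.

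The share of members called was above the background in incisor under each rule tried. At q under 0.01, 6 members were higher in incisor and 2 in molar, against 2.27% and 8.8% of all tested genes. At q under 0.1 these were 11 and 3 members, against 6.31% and 14.5%. The authors' own mark of significance gave 9 and 3 members, against 4.69% and 12.7%. Among tested genes with at least 1 FPKM the background shares were 5.66% in incisor and 16.1% in molar, again beside 9 and 3 members. A difference of at least 2-fold with a pseudocount of 1 was seen for 14 members in incisor and 6 in molar, where 10.4% and 18.2% of all tested genes passed it.

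Several members share sequence or an interval with another gene. For 15 of the 41 genes, over 10% of the exon bases or of the 32-base words of their transcript lie in another gene, or another gene other than a microRNA or small nucleolar RNA has its row inside their interval. No label states how such reads were assigned or whether strand was used. Mcm7, Fen1, Tk1, Uhrf1 and Rfc5 are the called genes among the 15. Without the 15 genes, 5 members were called higher in incisor (Cdc6, Mcm3, Mcm4, Mcm5 and Rrm1) and 2 higher in molar (Gins4 and Pola2). The median was then -0.31. Over all tested genes, not filtered in this way, 4.28% were called higher in incisor and 11.9% in molar. No share or median of all genes under the same filter was computed.

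**Figure D1:**
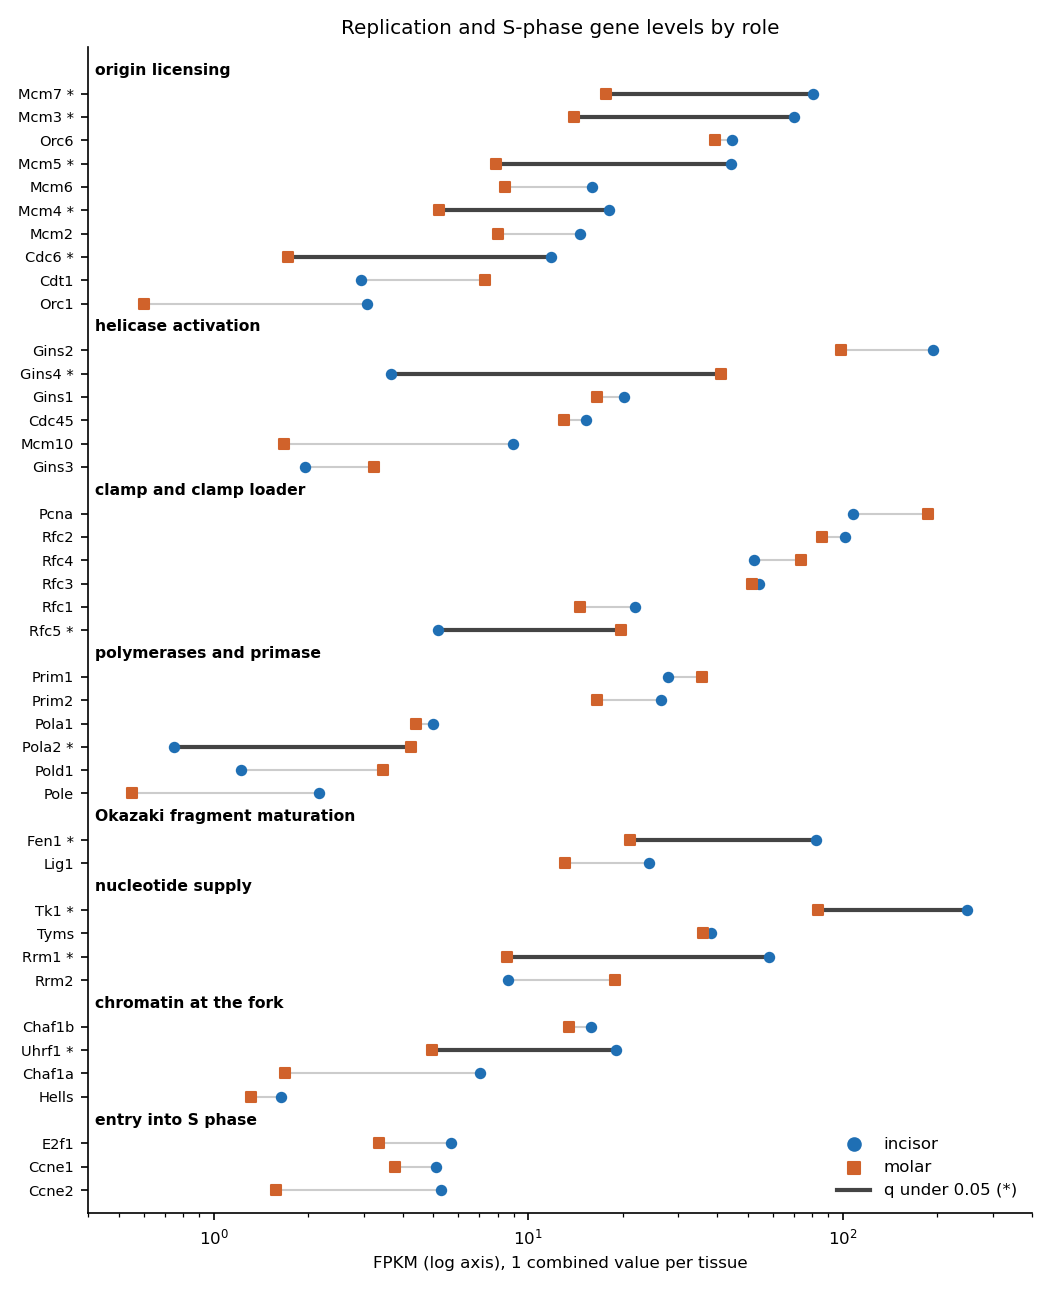
FPKM of each member in incisor (blue circles) and molar (orange squares) on a log axis, grouped by role and ordered by mean within a role, with 1 combined value per tissue and no error bars. Dark lines and asterisks mark the 12 called genes. The licensing genes lie mostly to the right in incisor, while Gins4, Rfc5 and Pola2 lie to the right in molar.

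Promoters are shown first, because members that were called in the same direction can be set side by side there. RefSeq sequence of GRCm38.p6 held a promoter for 33 of the 41 genes and none for Ccne2, Gins1, Gins2, Gins4, Mcm4, Pole, Prim2 and Rfc2. A window from 250 bases before to 50 bases after the start was searched on both strands for E2F-like words, namely any of TTTCCCGC, TTTGGCGC, TTCCCGCC and TTGGCGCC, of which some overlap each other. Such a word lay in the window of 18 of 33 members (54.5%), of 7.90% of 10012 tested genes at 1 FPKM or more and of 4.34% of all 27025 promoters. It lay in 6 of the 8 members with a promoter that were called higher in incisor (Cdc6, Mcm3, Mcm5, Mcm7, Rrm1 and Uhrf1, but not Fen1 or Tk1). Neither Pola2 nor Rfc5, both called higher in molar, held one. Of the 23 members with a promoter that were not called, 12 held one (52.2%), so the word was also common where no difference was called. Lig1 is counted among the 18 and the 12, although a listing of words by window gives none for it, so its place is uncertain. In the 150 bases before the start alone, 10 of 33 members held one (30.3%), against 4.65% of tested genes at 1 FPKM or more.

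The 250 bases before the start are printed for 6 genes, 5' to 3' on the gene's own strand, with the E2F-like word in capitals. Tk1, Fen1 and Mcm7 are the called members with the highest mean FPKM that had a promoter. Mcm5, Rrm1 and Rfc5 were added after their values were seen, to show more words and a gene called higher in molar. In Mcm7 the word TTTCCCGC lies on the opposite strand, 165 bases before the start, at chr5:138171884-138172133 (minus strand).
Mcm7: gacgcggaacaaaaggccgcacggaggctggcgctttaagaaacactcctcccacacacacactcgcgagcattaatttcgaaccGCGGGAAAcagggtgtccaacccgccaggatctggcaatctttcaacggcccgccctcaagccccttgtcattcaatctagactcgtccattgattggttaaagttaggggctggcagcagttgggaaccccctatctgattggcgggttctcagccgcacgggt
In Mcm5 the word TTTGGCGC, also on the opposite strand, lies 149 bases before the start, at chr8:75109259-75109508 (plus strand).
Mcm5: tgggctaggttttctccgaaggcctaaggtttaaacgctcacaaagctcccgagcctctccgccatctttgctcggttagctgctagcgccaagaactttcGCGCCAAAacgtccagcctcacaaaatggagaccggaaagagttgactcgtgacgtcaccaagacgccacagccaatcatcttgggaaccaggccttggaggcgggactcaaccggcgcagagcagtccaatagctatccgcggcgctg
In Rrm1 the word TTCCCGCC lies 67 bases before the start, at chr7:102441445-102441694 (plus strand).
Rrm1: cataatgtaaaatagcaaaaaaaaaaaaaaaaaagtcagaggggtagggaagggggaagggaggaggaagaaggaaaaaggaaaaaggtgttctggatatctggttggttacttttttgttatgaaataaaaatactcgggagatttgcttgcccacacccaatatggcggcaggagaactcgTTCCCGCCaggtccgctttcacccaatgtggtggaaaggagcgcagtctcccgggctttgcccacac
The remaining windows hold no such word. They are Tk1 at chr11:117826015-117826264 (minus strand), Fen1 at chr19:10203922-10204171 (minus strand) and Rfc5 at chr5:117389024-117389273 (minus strand). The Tk1 window lies inside the table's own Tk1 interval, which runs on over Afmid, and the last bases of the Fen1 window lie inside the table's Fen1 interval. The windows of Cdc6, E2f1 and Lig1 also lie inside the table's intervals of these genes. In the GENCODE M21 annotation the Mcm7 window lies inside the gene, and so does nearly all of the Fen1 window. Positions before the start therefore refer to the RefSeq start only.
Tk1: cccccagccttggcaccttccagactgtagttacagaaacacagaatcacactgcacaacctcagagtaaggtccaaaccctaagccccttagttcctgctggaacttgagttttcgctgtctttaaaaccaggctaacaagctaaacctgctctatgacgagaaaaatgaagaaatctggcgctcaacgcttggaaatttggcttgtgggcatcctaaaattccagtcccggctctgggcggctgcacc
Fen1: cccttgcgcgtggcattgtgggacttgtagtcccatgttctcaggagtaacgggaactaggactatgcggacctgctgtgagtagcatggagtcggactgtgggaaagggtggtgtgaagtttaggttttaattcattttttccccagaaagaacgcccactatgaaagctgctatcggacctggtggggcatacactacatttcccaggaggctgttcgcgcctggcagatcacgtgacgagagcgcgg
Rfc5: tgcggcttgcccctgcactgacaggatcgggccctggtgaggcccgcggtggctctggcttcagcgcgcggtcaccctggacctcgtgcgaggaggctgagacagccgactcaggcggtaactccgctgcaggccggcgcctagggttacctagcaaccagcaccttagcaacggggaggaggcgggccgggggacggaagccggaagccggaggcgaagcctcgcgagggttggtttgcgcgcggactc
A match is only a run of letters, and no binding was measured. The CCAAT box, a common promoter element read by NF-Y, was held by 19 of 33 members (57.6%) and by 42.9% of tested genes at 1 FPKM or more. The CHR element of mitotic genes, searched as TTTGAA or TTCGAA, was held by 6 of 33 members (18.2%) and by 17.0% of those tested genes. Among 27 mitosis genes with a promoter, 2 held an E2F-like word (7.41%) and 20 held the CHR element (74.1%). Of 31 other replication genes with a promoter, 9 held an E2F-like word (29.0%).

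The licensing genes, the largest role, held 5 of the 12 calls in the authors' deposited table. Of 10 genes, 9 were lower in molar by sign, 5 were called higher in incisor and none was called higher in molar, and their median log2 difference was -1.48. Over all tested genes 4.28% were called higher in incisor and 11.9% in molar. Of those at 1 FPKM or more, 45.5% were lower in molar by sign. The counts of each role below are to be read beside these shares. A role of 6 genes is too small to set 1 call higher in molar apart from 11.9%. Cdc6, the ATPase that brings the Mcm ring to the origin (chr11:98907889-98923942, mm10), stood at 11.8 FPKM in incisor and 1.73 in molar, 6.86-fold apart (q = 0.00278). The Cdc6 level thus passed from well expressed in incisor to near the 1 FPKM floor in molar. Cdt1, the partner of Cdc6 in loading, went the other way by sign, with 2.95 FPKM in incisor and 7.28 in molar, a difference that was not called (q = 0.218). Cdc6 and Cdt1 therefore stand on opposite sides of equality, although only the difference of Cdc6 was called.

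All 6 subunits of the Mcm2 to Mcm7 ring were lower in molar by sign, and 4 of them were called. Mcm7 (chr5:138164589-138171862) was the most abundant subunit in both tissues, with 80.6 FPKM in incisor and 17.7 in molar (4.56-fold, q = 0.000664). Mcm3 (chr1:20803014-20820213) was second in both, with 70.2 and 14.0 FPKM (5.02-fold, q = 0.000664). Mcm5 (chr8:75109509-75128439) had 44.1 FPKM in incisor and 7.88 in molar (5.59-fold, q = 0.00124). These 3 subunits carried most of the summed level of the ring in incisor. Mcm4 (chr16:15623897-15637400), a subunit of the helicase's catalytic core, had 18.05 and 5.21 FPKM (3.46-fold, q = 0.0225). Mcm6 had 15.9 and 8.46 FPKM (q = 0.225), and Mcm2 had 14.6 and 8.04 FPKM (q = 0.252). Neither Mcm6 nor Mcm2 was called, so the subunits were not called alike although they assemble in equal numbers.

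Summed over the 6 subunits, the ring's FPKM was 243 in incisor and 61.2 in molar, 3.98-fold apart. The subunits spread over 5.52-fold from lowest to highest in incisor and over 3.39-fold in molar. The order from the highest level down was Mcm7, Mcm3, Mcm5, Mcm4, Mcm6 and Mcm2 in incisor, and Mcm7, Mcm3, Mcm6, Mcm2, Mcm5 and Mcm4 in molar. Without a spread between libraries, neighbours in these orders cannot be told apart. Reads for Mcm7 may be shared, since 46.8% of its 32-base words also occur elsewhere, chiefly in Gm5487, and 12.6% of its exon bases overlap Ap4m1 on the opposite strand. The microRNA genes Mir106b, Mir93 and Mir25, which lie inside the Mcm7 interval, were each listed at 0 in both tissues and not tested.

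Of the origin recognition complex, Orc6 had 44.4 FPKM in incisor and 39.3 in molar (q = 0.592). Orc1, its cell-cycle regulated ATPase subunit, had 3.07 and 0.602 FPKM, a 5.11-fold ratio that was not called (q = 0.125). Orc1 lay among the lowest members in both tissues.

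The genes that activate the helicase held the largest fold of all members. Gins4 (Sld5, a subunit of the 4-part GINS ring, chr8:23226610-23237668) stood at 3.66 FPKM in incisor and 41.03 in molar, 11.2-fold apart (q = 0.000664). Its partners were not called in the authors' deposited table. Gins1 had 20.2 and 16.5 FPKM (q = 0.497), Gins2 had 194 and 98.6 (q = 0.174), and Gins3 had 1.96 and 3.24 (q = 0.309). GINS subunits occur once each in the complex, yet their FPKM spread over 99.4-fold in incisor and 30.4-fold in molar. The value of Gins2 may hold reads of Gse1, which covers 67.3% of its exon bases on the opposite strand and lies within the same row interval. In its own row Gse1 had 3.48 FPKM in incisor and 2.33 in molar (q = 0.535). Cdc45, the other helicase partner, had 15.3 and 13.0 FPKM (q = 0.542). Mcm10, which is needed to start unwinding, had 8.98 FPKM in incisor and 1.67 in molar, 5.37-fold apart, without a call (q = 0.0963). Over the 6 genes of this role the median was -0.25, with 4 lower in molar by sign.

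The loader of the sliding clamp had nearly level sums in the tissues, with 1 subunit called higher in molar. Pcna, the clamp and a widely used S-phase marker, had 108 FPKM in incisor and 187 in molar, without a call (q = 0.163). The sign of this difference turned to -0.16 on the log2 scale once the median of genes of like length was taken out. Of its 32-base words 37.5% also occur in other genes, chiefly the pseudogene Pcna-ps2. Of the 5 loader subunits, Rfc5 (chr5:117379145-117389023) was called, with 5.17 FPKM in incisor and 19.7 in molar (3.81-fold, q = 0.00508). Wsb2 overlaps 10.7% of the exon bases of Rfc5, and 32.4% of the 32-base words of Rfc5 also occur elsewhere, chiefly in Wsb2. The large subunit Rfc1 had 21.8 and 14.6 FPKM (q = 0.265), Rfc2 had 102 and 86.1 (q = 0.490), Rfc3 had 54.1 and 51.5 (q = 0.830), and Rfc4 had 52.2 and 74.0 (q = 0.632). The loader's sum was 235 FPKM in incisor and 246 in molar. The subunits differ in transcript length. With the median of genes of like length taken out, the log2 differences were -0.32 for Rfc1, 0.00 for Rfc2 and -1.02 for Rfc3. They were -0.45 for Rfc4 and 1.85 for Rfc5. The Rfc4 row interval also holds Eif4a2, which had 124 and 108 FPKM in its own row (q = 0.622). Of the 32-base words of Rfc2, 22.7% also occur elsewhere, chiefly in Lat2. The loader's sum may thus hold reads of other genes. The spread among the loader's subunits was 19.7-fold in incisor, where Rfc5 was the lowest, and 5.90-fold in molar.

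Among polymerases and primase 1 of 6 genes was called, in a direction in which 11.9% of all tested genes were called. Pola2 (chr19:5940543-5964206), the regulatory subunit of polymerase alpha, had 0.748 FPKM in incisor and 4.24 in molar (5.66-fold, q = 0.0313), the weakest q among the called members. The catalytic subunit Pola1 had 4.97 and 4.404 FPKM (q = 0.624). Of the primase subunits, Prim1 had 27.8 and 35.8 FPKM (q = 0.392) and Prim2 had 26.4 and 16.6 (q = 0.269). Summed over these 4 genes, polymerase alpha and primase had 59.9 FPKM in incisor and 61.0 in molar, so the difference in Pola2 hardly entered the total. Pold1, the catalytic subunit of polymerase delta, had 1.22 and 3.46 FPKM (q = 0.109), and Pole, that of polymerase epsilon, had 2.16 and 0.551 (q = 0.252). The 2 replicative polymerases lay in opposite directions by sign, and neither was called.

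Okazaki fragments, the short pieces of the lagging strand, are trimmed by Fen1 and joined by Lig1. Fen1 (chr19:10199132-10203943) had 82.2 FPKM in incisor and 21.1 in molar (3.89-fold, q = 0.00278). Another transcript, Gm10143, overlaps 84.2% of its exon bases on the opposite strand, so the value cannot be given to Fen1 alone. Lig1 had 24.3 and 13.1 FPKM and was not called (q = 0.235).

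Genes that supply nucleotides included the most abundant member in incisor. Tk1 (chr11:117815519-117839908), the thymidine kinase of cycling cells, had 248 FPKM in incisor and 83.3 in molar (2.98-fold, q = 0.0177). The interval of its row also holds Afmid, which had 11.0 and 5.80 FPKM in its own row (q = 0.508). Rrm1 (chr7:102441695-102469771), the large subunit of ribonucleotide reductase, had 58.4 and 8.55 FPKM (6.83-fold, q = 0.000664). Rrm2, the small subunit that is made in S phase, had 8.63 FPKM in incisor and 18.8 in molar, without a call (q = 0.158). The subunits of 1 enzyme thus had the reverse order of level in the tissues, Rrm1 above Rrm2 in incisor and below it in molar. Tyms, which makes thymidylate, had 38.3 and 35.9 FPKM (q = 0.761).

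At the chromatin behind the fork, all 4 genes were lower in molar by sign, Hells only before the length trend described further on was taken out, and 1 was called. Uhrf1 (chr17:56303337-56323486), which recruits the maintenance DNA methyltransferase to newly copied DNA, had 19.1 FPKM in incisor and 4.93 in molar (3.87-fold, q = 0.0118). Of its 32-base words 28.7% also occur elsewhere, chiefly in Gm5648. Chaf1a, the large subunit of the histone chaperone CAF-1, had 7.01 and 1.69 FPKM and had the lowest q of the members not called (q = 0.0715). Ubxn6 overlaps 52.5% of its exon bases on the opposite strand and was itself called higher in molar, with 3.90 and 56.4 FPKM (q = 0.000664). Chaf1b had 15.8 and 13.5 FPKM (q = 0.552), and the chromatin remodeller Hells had 1.63 and 1.32 (q = 0.563).

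None of the 3 genes of entry into S phase was called, and all 3 were lower in molar by sign. The transcription factor E2f1 had 5.68 FPKM in incisor and 3.35 in molar (q = 0.360). Cyclin E1 (Ccne1) had 5.10 and 3.77 FPKM (q = 0.466), and cyclin E2 (Ccne2) had 5.27 and 1.58 (q = 0.169). All 3 stood below 10 FPKM in both tissues.

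Across the members the incisor level ran from 0.748 FPKM (Pola2) to 248 (Tk1), with a median of 15.9. The molar level ran from 0.551 (Pole) to 187 (Pcna), with a median of 13.0. In incisor 25 members reached 10 FPKM, and in molar 21 did. The sum over the 41 genes was 1476 FPKM in incisor and 993 in molar, although Tk1, Gins2 and Pcna weigh heavily in it. Within 1.5-fold of equality lay 13 members, and the 12 called genes lay at least 2.98-fold apart. The 41 genes lie on 14 chromosomes.

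The difference between tissues followed transcript length over all genes, a trend that was noticed after the data were examined. With the longest coding transcript of GENCODE M21 as the length, 12092 of the 13198 genes had a length (91.6%), and so did all 41 members. The genes were put in 5 groups of about equal size by length. In the shortest group (293 to 1724 bases) the median log2 difference was 0.95, and 31.97% of genes were called higher in molar against 1.57% in incisor. In the longest group (4958 to 123179 bases) the median was -0.25, with 6.95% called higher in molar and 7.61% in incisor. Spearman's rho between length and log2 difference was -0.36 over all 12092 genes and -0.44 over the 41 members, a description over genes that share the same libraries. Its part in the members' result was not tested.

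The members' own values by length were as follows. The 17 members of at most 2580 bases had a median of -0.07, with 9 lower in molar by sign, 2 called higher in incisor and 2 in molar. All genes of that length had a median of 0.71, with 2.75% called higher in incisor and 27.0% in molar. The 24 longer members had a median of -0.999, with 22 lower in molar by sign, 7 called higher in incisor and 1 in molar. All genes of that length had a median of -0.21, with 8.11% called higher in incisor and 9.24% in molar. Weighted to the members' lengths, the shares of all genes called were 5.998% in incisor and 16.9% in molar, beside 22.0% and 7.32% of the members. Less the median of their length group, the members' median was -0.74, and 30 of 41 lay below it. On this scale the called members lay between -2.51 for Tk1 and 2.23 for Gins4. Members of at most 2580 bases moved down on it, and longer ones moved up. Of those not called, Gins1 went from -0.27 to -1.22, Orc6 from -0.17 to -1.12 and Prim2 from -0.64 to -1.07. The longer Mcm6 went from -0.84 to -0.61 and Mcm2 from -0.79 to -0.68. The sign changed for 7 members, none of them called: Pcna (to -0.16), Prim1 (to -0.59) and Rfc4 (to -0.45) fell below 0, and Hells, Pola1, Rfc2 and Tyms came to lie between 0.00 and 0.10.

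**Figure D2:**
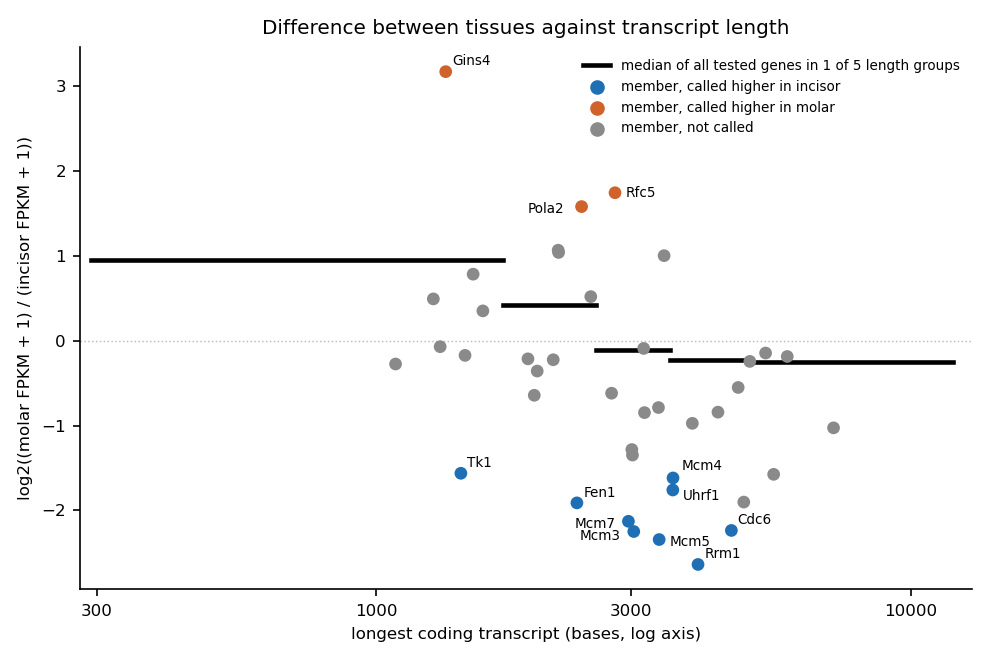
Log2 difference (pseudocount 1, positive is higher in molar) of each member against the length of its longest coding transcript on a log axis, with called members coloured and named. Black lines are medians of all tested genes at 1 FPKM or more in 5 groups of length, running from 0.95 in the shortest to -0.25 in the longest, whose line ends at the edge of the plot. Most members lie below the lines, and Gins4, Rfc5 and Pola2 lie above them.

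Other genes of the replication machinery were called in both directions. Of 36 with a row of their own, 4 were called higher in incisor and 5 in molar (11.1% and 13.9%), beside 4.28% and 11.9% of all tested genes, and the median of the 34 at 1 FPKM or more was -0.13. Pold4 had only a row joined with Clcf1. Rpa1, the large subunit of the single-strand binding protein RPA, had 66.8 FPKM in incisor and 7.71 in molar (q = 0.000664). Its partners Rpa2 (56.3 and 52.0 FPKM) and Rpa3 (40.1 and 87.0) were not called. As with GINS and ribonucleotide reductase, only a part of the RPA subunits was called. Cdc7, the kinase that fires licensed origins, had 9.76 and 0.422 FPKM (q = 0.0253), while its activator Dbf4 (3.77 and 2.08) was not called. Mcmbp, which binds the Mcm subunits, had 27.8 and 7.37 FPKM (q = 0.000664), and Wdhd1, which ties polymerase alpha to the helicase, had 5.60 and 0.460 (q = 0.0277).

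The 5 replication genes called higher in molar were a share near that of all genes. Pole4, a small subunit of polymerase epsilon, had 6.56 FPKM in incisor and 42.4 in molar (q = 0.000664). Dscc1, of an alternative clamp loader, had 0.176 and 11.6 FPKM (q = 0.0222). Rnaseh2c (2.56 and 26.7, q = 0.0150) and Rnaseh2b (6.96 and 21.8, q = 0.0199) belong to the enzyme that removes ribonucleotides from DNA, and Top1 (9.55 and 26.5, q = 0.0164) relaxes DNA ahead of the fork. Geminin (Gmnn), the inhibitor of Cdt1, had 43.2 and 58.5 FPKM and was not called.

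Other genes of S phase or linked to E2F had 5 of 40 called higher in incisor and 4 higher in molar (12.5% and 10%), with a median of -0.39. The share in molar was near the 11.9% of all tested genes, and that in incisor stood beside 4.28%. Higher in incisor were Cdca7 (60.7 and 6.91 FPKM), the ubiquitin ligase subunit Skp2 (19.8 and 2.00), the histone chaperone Asf1b (92.4 and 26.5), the E2F partner Tfdp1 (30.4 and 8.50) and the repair gene Rad51ap1 (22.5 and 6.49). Slbp (9.40 and 92.7), which binds histone mRNA, and the dUTPase Dut (1.33 and 7.73) were called higher in molar. So were Fbxo5 (4.11 and 14.3), an inhibitor of the anaphase-promoting complex, and the p53-induced reductase subunit Rrm2b (0.606 and 2.12). This list was also split in direction.

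Mitosis genes were called in both directions. Of 31 genes, 9 were called higher in incisor and 5 in molar (29.0% and 16.1%, beside 4.28% and 11.9% of all tested genes), with a median of -0.71. The largest differences called higher in incisor were the checkpoint kinase Bub1b (20.6 and 2.05 FPKM), Prc1 (62.6 and 9.65) and Nusap1 (45.9 and 7.53) of the spindle midzone and spindle, Tpx2 (25.4 and 6.28), the proliferation marker Mki67 (17.5 and 4.84) and Aurka (54.1 and 16.9). Top2a (45.8 and 16.5), Cenpe (9.09 and 3.31) and Cenpf (7.72 and 2.79) were also called higher in incisor. Higher in molar were Ube2c (9.92 and 159), the centromeric histone Cenpa (6.58 and 69.8), cyclin B2 (Ccnb2, 13.0 and 74.0), Plk1 (2.69 and 9.88) and Tacc3 (5.49 and 16.2). Cdk1, the mitotic kinase, had 52.4 and 53.5 FPKM and was not called. The kinesin Kif20a, named for its large fold, had 53.7 and 2.36 FPKM and was not called either (q = 0.384).

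Of 14 CDK inhibitors, D cyclins and related genes, 4 were called higher in molar and 1 in incisor (28.6% and 7.14%). Over all tested genes 11.9% and 4.28% were called. The 4 have transcripts of 1423 to 2113 bases, and 27.0% of all genes of at most 2580 bases were called higher in molar. The share of 28.6% is thus near that of short genes. The median of the 13 at 1 FPKM or more was 0.84, and 0.44 less the median of the length group. The CDK inhibitors Cdkn1a (30.2 FPKM in incisor and 94.6 in molar), Cdkn1c (49.8 and 136) and Cdkn2d (18.2 and 81.6) and cyclin D3 (Ccnd3, 13.6 and 45.9) were called higher in molar. Cdk6, a partner of D cyclins, was called higher in incisor (12.8 and 3.40). Cyclin D1 (Ccnd1, 29.3 and 34.1) and Trp53 (205 and 246) were not called. Cdkn2a was listed at 0 in incisor.

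**Figure D3:**
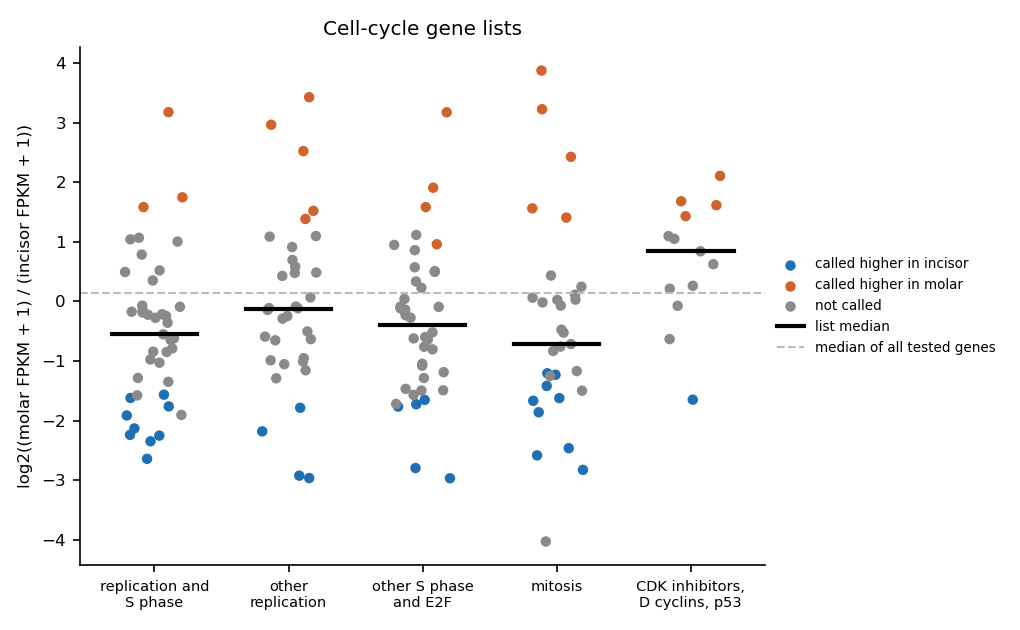
Log2 difference (pseudocount 1, positive is higher in molar) of each gene at 1 FPKM or more, in the replication and S-phase genes and in 4 other cell-cycle lists, with called genes coloured, list medians as black lines and the median of all tested genes dashed. The medians run from -0.71 (mitosis) to 0.84 (CDK inhibitors, D cyclins and p53), and each list holds calls in both directions. Less the median of the length group, not drawn here, the replication and S-phase genes lie lowest (-0.74). Horizontal position within a list carries no value.

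Histone genes of S phase were mostly low, and those at 1 FPKM or more lay mostly higher in molar by sign. Of 65 symbols, 21 were listed at 0 in both tissues, 44 stayed below 1 FPKM in both, and 38 were tested. Among the 21 at 1 FPKM or more, 15 were higher in molar and 6 lower, with a median of 1.14. Less the median of the length group, the median of the 20 with a length was 0.55. Of the 38 tested, 2.63% were called higher in incisor and 5.26% in molar, beside 4.28% and 11.9% of all tested genes. The linker histone Hist1h1b was called higher in incisor (77.9 and 16.7 FPKM, q = 0.0186). Hist1h1e (2.01 and 17.4, q = 0.0241) and Hist1h2bc (0.749 and 78.9, q = 0.00550) were called higher in molar. Most mRNAs of these genes end without a poly(A) tail, and the labels do not say how RNA was selected.

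Markers of other cell types moved with the tissue as well. Over all tested genes, 4.28% were called higher in incisor and 11.9% in molar. Of 12 markers of dental epithelium, all 12 were lower in molar by sign and 8 were called higher in incisor, and their summed FPKM was 23512 in incisor and 2638 in molar (8.91-fold). Of 10 endothelial markers, 9 were called higher in molar, with sums of 21.6 and 301 FPKM, and Cldn5 was listed at 0 in incisor. Of 7 erythroid markers with a row of their own, 5 were called higher in molar, with sums of 9.91 and 232 FPKM, and Klf1 was listed at 0 in incisor. Macrophage markers had 2 of 10 called in each direction, with sums of 5467 and 8108 FPKM. Odontoblast and osteoblast markers had 2 of 10 called higher in incisor and 1 in molar, with sums of 768 and 487 FPKM.

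The mural cells that the reporter labels were present by their markers in both tissues. Of 12 mural markers, 4 were called higher in incisor and 2 in molar (33.3% and 16.7%, beside 4.28% and 11.9% of all tested genes). The sums were 917 and 364 FPKM, in which Rgs5 weighs heavily. The pericyte marker Rgs5 was called higher in incisor, with 537 FPKM in incisor and 127 in molar. Tagln (153 and 12.4 FPKM), Cd248 (82.5 and 35.4) and Pdgfrb (30.3 and 12.6) were also called higher in incisor. The pericyte channel gene Kcnj8 (15.98 and 108 FPKM) and the filament gene Des (0.155 and 3.17) were called higher in molar. The sorted cells thus held RNA of epithelium, macrophages and other cells, and which cells carried the replication genes was not measured. The part of these cell types in the members' differences was not tested.

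**Figure D4:**
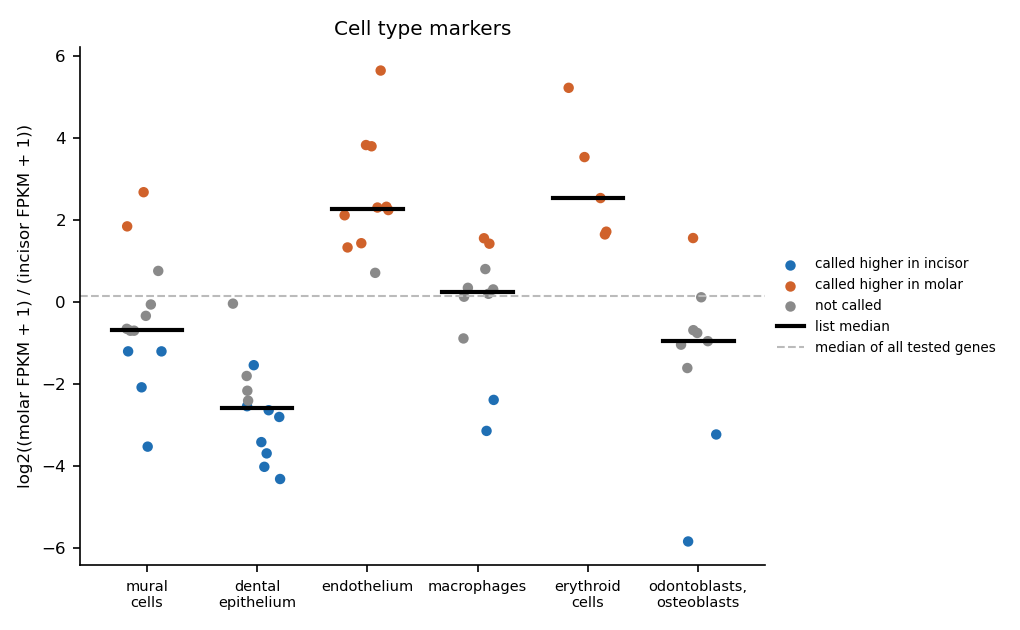
Log2 difference (pseudocount 1, positive is higher in molar) of markers of 6 cell types at 1 FPKM or more, with called genes coloured, list medians as black lines and the median of all tested genes dashed. Dental epithelium lies lowest (median -2.59), while endothelium (2.28) and erythroid cells (2.54) lie highest. Horizontal position within a list carries no value.

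Scaling set how far the members leaned to incisor. The FPKM of all 24216 rows summed to 539574 in incisor and 815089 in molar, and genes above 0 in each tissue had a median log2 fold of 0.22. Set to equal totals, 8 members were higher in molar in place of 10, since Prim1 and Rfc4 changed sign (log2 folds of -0.23 and -0.09). With that median taken out, 10 members were higher in molar. These scalings move every gene alike, by 0.22 and 0.60 on the log2 scale, which is less than the log2 fold of any called member, the nearest to 0 being Tk1 at -1.57.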

How the data were processed

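The series holds 4 libraries of FDG-positive pulp cells, 2 per tissue, and the authors deposited 1 table that combines them. Tools listed in the submitters' processing notes, without their roles, are edgeR, HISAT2 and Trim Galore, and the build is mm10. Per the file headers, the deposited columns are FPKM per tissue, a log2 fold, the score of a test, a p-value, a q-value and a mark of significance. The program that made the table, its scaling, annotation and strand setting are not stated. The layout is that of Cuffdiff, which no label names. Start positions were moved by 1 base to 1-based mm10 coordinates.

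No value per library was held, so the planned count model could not be run, nor could fits that leave out a library. No p of any other test is given. Calls rest on the authors' q under 0.05 and status. Medians use log2 of FPKM with a pseudocount of 1 over genes at 1 FPKM or more in a tissue. Joined rows were not used in lists. Exon and 32-base word sharing and lengths come from GENCODE M21, and promoters from RefSeq GRCm38.p6. A planned comparison of protein sequences was not done. The scripts used Python 3.11.15 with pandas 2.3.3, numpy 2.4.6 and matplotlib 3.10.9, and were tested on simulated data. Columns of per-sample values left unused numbered 0.

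The members and gene lists were chosen with earlier results of these data known. Every member is accounted for. Of the 4 wider lists, called genes are named up to 6 per direction by size of difference, and genes that were not called were named after their values were seen. Of the marker symbols, Hba-a1 and Hbb-bs lay in joined rows and Ahsp had no row. Alternatives were other q thresholds, the authors' mark, a 2-fold rule, other pseudocounts, a higher FPKM minimum, 2 other scalings and a shorter promoter window. Leaving out genes that share sequence and taking out the length trend were chosen after seeing the data.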

Additional observations from a re-analysis of the deposited data

How the results depend on the processing

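With 9 members called higher in incisor and 3 in molar as reported, a 2-fold rule gave 14 and 6, and leaving out the members that share sequence or an interval gave 5 in incisor. The members' median log2 difference of -0.55 became -0.58 with a pseudocount of 0.1, -0.35 with 5, -0.63 at 5 FPKM or more, -0.77 when centred on the median gene, -1.05 at equal totals, -0.31 without the members that share sequence and -0.74 less the median of the length group. With a pseudocount of 0.1, a pseudocount of 5, median centring and equal totals in that order, the median of other replication genes was -0.23, -0.070, -0.35 and -0.47, that of other S-phase genes -0.53, -0.16, -0.62 and -0.72, that of mitosis genes -0.76, -0.42, -0.94 and -1.04, and that of CDK inhibitors, D cyclins and p53 1.05, 0.51, 0.62 and 0.46. Less the median of the length group, other replication genes stood at -0.38 and other S-phase genes at -0.31. Mitosis genes stood at -0.61 and CDK inhibitors, D cyclins and p53 at 0.44. On that scale the members' median of -0.74 was the lowest of these lists, in place of that of mitosis genes. The share of members with an E2F-like word was 30.3% in the shorter window, which holds fewer bases. None of these medians changed sign, although most of them moved in size. The 12 called members could not change sign, since their differences were larger than any of the shifts applied. By sign, Prim1 and Rfc4 turned at equal totals, and 7 members that were not called turned less the median of their length group. Beyond the construction of each alternative the cause of these shifts was not tested.

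No paired analysis was possible because the table gives 1 combined value per tissue. For the same reason leaving out a library and the count model were not run. Depth is unknown, so no interval can be given for low genes such as Pola2 in incisor.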
